A study of Mus musculus with 42 samples.

Results

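The genes described here are 34 named genes of fat cells and lipid storage, taken from mouse reproductive tract arrays. A gene was included if a probe set of the array carried its symbol and no other in the platform annotation. By that rule 32 of the 34 genes were measured, with 34 probe sets between them, out of 19938 genes and 28856 probe sets in all. Acaca and Me1 had 2 probe sets each, which were averaged, and Acsl1 and Adrb3 are not analysed here. The rule itself uses no measured value.

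White fat cells store triglyceride in a large droplet. The nuclear receptor PPARG and the factor C/EBP alpha drive fat cells to form and switch on most of the genes that serve storage. Fatty acids enter from the blood by way of lipoprotein lipase and CD36, or are made in the cell by acetyl-CoA carboxylase and fatty acid synthase. They are joined to glycerol phosphate, coated by perilipin and CIDE proteins, released again by lipases, and reported on by hormones such as adiponectin and leptin. In male mice a white fat pad lies against the epididymis, and in females fat lies beside the uterus and oviduct.

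RNA came from whole vas deferens, caudal epididymis, uterus and oviduct of adult CD1/129 mice aged 3 to 7 months, the females in diestrus, in 14 groups of 3 arrays. The vas deferens carries sperm from the tail of the epididymis. Vas deferens and uterus each had 5 genotypes: wild type (WT), Hoxa9,10,11-/- (AKO), Hoxd9,10,11-/- (DKO), Hoxa9,10,11-/-d9,10,11+/- (AKDH) and Hoxa9,10,11+/-d9,10,11-/- (AHDK). Epididymis and oviduct had WT and AKO. The mutated genes encode Hox transcription factors that pattern the tract along its length, and every mutant group lacks 3 neighbouring genes at once. In whole tissue, more cells of a type and more RNA per cell cannot be told apart. The design asked what these mutations change in each tract segment.

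Each value is a log value, read as log2, relative to the middle array of the same sex, because the deposited table sets every probe set's median to 0 over the 21 female and again over the 21 male arrays. A value of 1 is therefore a doubling over that middle array, levels of different genes cannot be compared, and folds assume that the log base is 2. Changes are log2 differences between means of 3 arrays, from limma fitted on all arrays of a tissue. A gene was called where the Benjamini-Hochberg adjusted p over 19938 genes was below 0.05. Its p-value sets the change against the spread between samples of a group, and takes in no other source of error. That spread is pooled over all groups fitted and drawn towards that of all genes.

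The promoters of 4 of the genes are shown as examples of called and uncalled genes in vas deferens: Adipoq, Lep and Pck1 rose in several mutants and Ucp1 was called in none. They are RefSeq sequences of build GRCm38.p6, the 250 bases before the gene's start, 5′ to 3′, with motif matches in capitals.
Adipoq, chr16:23146286-23146535, + strand: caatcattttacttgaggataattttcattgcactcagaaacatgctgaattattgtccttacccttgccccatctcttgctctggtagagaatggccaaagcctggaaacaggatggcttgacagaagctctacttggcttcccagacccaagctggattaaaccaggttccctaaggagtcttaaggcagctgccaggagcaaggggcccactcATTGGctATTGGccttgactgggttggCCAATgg
Lep, chr6:29059971-29060220, + strand: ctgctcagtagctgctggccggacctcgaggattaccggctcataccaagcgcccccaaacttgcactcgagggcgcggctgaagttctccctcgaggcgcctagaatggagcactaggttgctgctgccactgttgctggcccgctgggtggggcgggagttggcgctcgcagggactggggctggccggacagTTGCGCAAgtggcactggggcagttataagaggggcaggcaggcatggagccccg
Pck1, chr2:173152823-173153072, + strand: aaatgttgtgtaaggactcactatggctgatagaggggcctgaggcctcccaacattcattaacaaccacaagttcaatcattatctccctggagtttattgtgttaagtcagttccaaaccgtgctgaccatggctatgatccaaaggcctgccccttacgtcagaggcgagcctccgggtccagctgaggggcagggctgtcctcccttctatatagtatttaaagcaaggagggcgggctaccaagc
Ucp1, chr8:83290098-83290347, + strand: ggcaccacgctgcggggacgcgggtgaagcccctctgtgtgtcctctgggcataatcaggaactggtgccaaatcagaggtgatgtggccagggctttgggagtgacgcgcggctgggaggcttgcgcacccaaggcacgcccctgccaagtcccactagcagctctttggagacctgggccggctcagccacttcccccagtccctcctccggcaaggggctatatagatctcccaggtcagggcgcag
In Adipoq the capitals are 3 CCAAT boxes (CCAAT, or ATTGG on the other strand), first bases at -34, -27 and -7 from the start. In Lep they are 1 C/EBP motif (TTGCNNAA), first base at -55, which reads the same on both strands. The windows of Pck1 and Ucp1 held none of the 5 motifs searched, which says only that these letters are not in these bases.

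Promoter windows from 250 bases before to 50 after a start were found for 23 of the 32 genes, 29 windows in all, and 9 genes had none. With both strands searched, the C/EBP motif was in 4 of the 29 windows (13.8%, in Cidec, Lep, Plin1 and Pparg) and in 10.8% of all 32851 windows in the table. The PPAR and RXR direct repeat, 2 copies of AGGNCA with 1 base between them, was in 0 of the 29 and in 0.381% of all windows. CCAAT was in 11 of the 29 windows (37.9%) against 37.4% of all, and TATAAA in 3 (10.3%, in Acacb, Cebpa and Pparg) against 13.6%. CACGTG was in 1 (3.45%, in Lipe) against 7.15%.

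The labels were checked against the targeted genes and the arrays against marker lists. Hoxa11 was lower in vas AKO (-1.51, adjusted p = 0.00961) and vas AKDH (-1.66, adjusted p = 0.0027), and Hoxd9 was lower in vas DKO (-0.55, adjusted p = 0.00581) and vas AHDK (-0.49, adjusted p = 0.00885). Hoxd9 was higher in vas AKO (0.45, adjusted p = 0.0053), and Hoxa9 and Hoxd10 were not called in any vas deferens mutant. In the other tissues 1 of the 6 targeted genes was called lower in uterus AKDH. In uterus AKO, DKO and AHDK, epididymis AKO and oviduct AKO 0 were called (2, 0, 1, 4 and 0 lower at an unadjusted p below 0.05). Hoxa11 read -1.59, 0.67 and -0.59 in uterus AKO and 2.75, 1.23 and 2.19 in uterus WT. Whether a probe set of a mutated gene reads lower depends on the kind of mutation and on where the probe set lies. Against WT vas deferens, WT epididymis had 9 of 10 sperm and testis germ cell markers higher and all 10 smooth muscle markers lower. In 1 refit, 3 arrays that stood apart by such lists were left out. These were vas AKDH replicate 3 (sperm and testis germ cell marker mean 1.13, the lowest AKDH array at -1.27), epididymis AKO replicate 1 (proximal epididymis marker mean 4.24, the other AKO arrays at 0.59) and oviduct WT replicate 2 (ovary marker mean 2.33, the other WT arrays at 0.50 and 0.16). Other arrays also stood apart. The skeletal muscle mean was 2.25 on vas AKDH replicate 2 (other AKDH arrays -0.10 and -0.59). On uterus AKDH replicate 1 the epithelial mean was 1.14 (others 0.42 and -0.011) and the smooth muscle mean -0.76 (others 0.44 and 0.68). The sperm marker mean was also 1.13 on vas AHDK replicate 3. Of all pairs of arrays, 0 held identical values.

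In 3 of the 4 mutants of the vas deferens, 16 or more of the 32 genes rose. In AKDH 23 of the 32 genes rose and none fell, where 24.3% of all genes were called and 9.57% were called higher. In AKO 16 rose and none fell, against 9.35% of all genes called and 4.91% called higher. In AHDK 16 rose and none fell, against 4.15% called and 2.08% called higher. In DKO, which keeps all Hoxa genes, 1 gene rose (Acacb), against 5.87% called and 3.85% called higher. Median log2 changes over the 32 genes were 1.02 in AKDH, 0.98 in AHDK, 0.70 in AKO and 0.14 in DKO. All 4 comparisons use the same 3 WT arrays.

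All 3 mutant arrays lay above all 3 WT arrays for 26 genes in AKDH (13.8% of all genes), 22 in AHDK (9.33%), 17 in AKO (14.2%) and 5 in DKO (18.8%). Of the genes called, 12 were called in AKO, AKDH and AHDK alike: Adipoq, Retn, Plin1, Cidec, Cebpa, Fabp4, Lpl, Cd36, Gpd1, Dgat2, Pck1 and Acacb. Another 4 were called in AKDH and AHDK but not in AKO (Lep, Pparg, Aqp7 and Lipe), and 4 in AKO and AKDH but not in AHDK (Fasn, Acaca, Scd1 and Thrsp). A call present in one mutant and absent in another is not a difference between them, which was tested separately. The mutants share their WT arrays, and the share of all genes called in the same combinations is not given here. Called in AKDH alone of the 3 were Dgat1, Pnpla3 and Car3. Called in no mutant were Plin4, Cidea, Slc2a4, Agpat2, Pnpla2, Elovl6, Acly, Me1 and Ucp1.

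The AKDH count was the most stable to leaving out 1 array, at 19 to 22, and 19 of the 23 genes were called in all 6 such refits. The AKO count fell to 5 without AKO replicate 1, 7 without AKO replicate 3, 6 without WT replicate 1 and 8 without WT replicate 2, and 5 genes were called in every refit (Acacb, Gpd1, Cd36, Acaca and Lpl). The AHDK count fell to 8 without WT replicate 2, and 8 genes were called in every refit (Pck1, Gpd1, Cd36, Lpl, Cebpa, Plin1, Lipe and Cidec). Acacb was called in DKO in 1 of 6 refits, the one without WT replicate 3. Fitted on the 6 arrays compared alone, with less information on the spread, the counts were 3 in AKO (Gpd1, Acaca and Acacb) and 0 in AHDK.

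**Figure D1:**
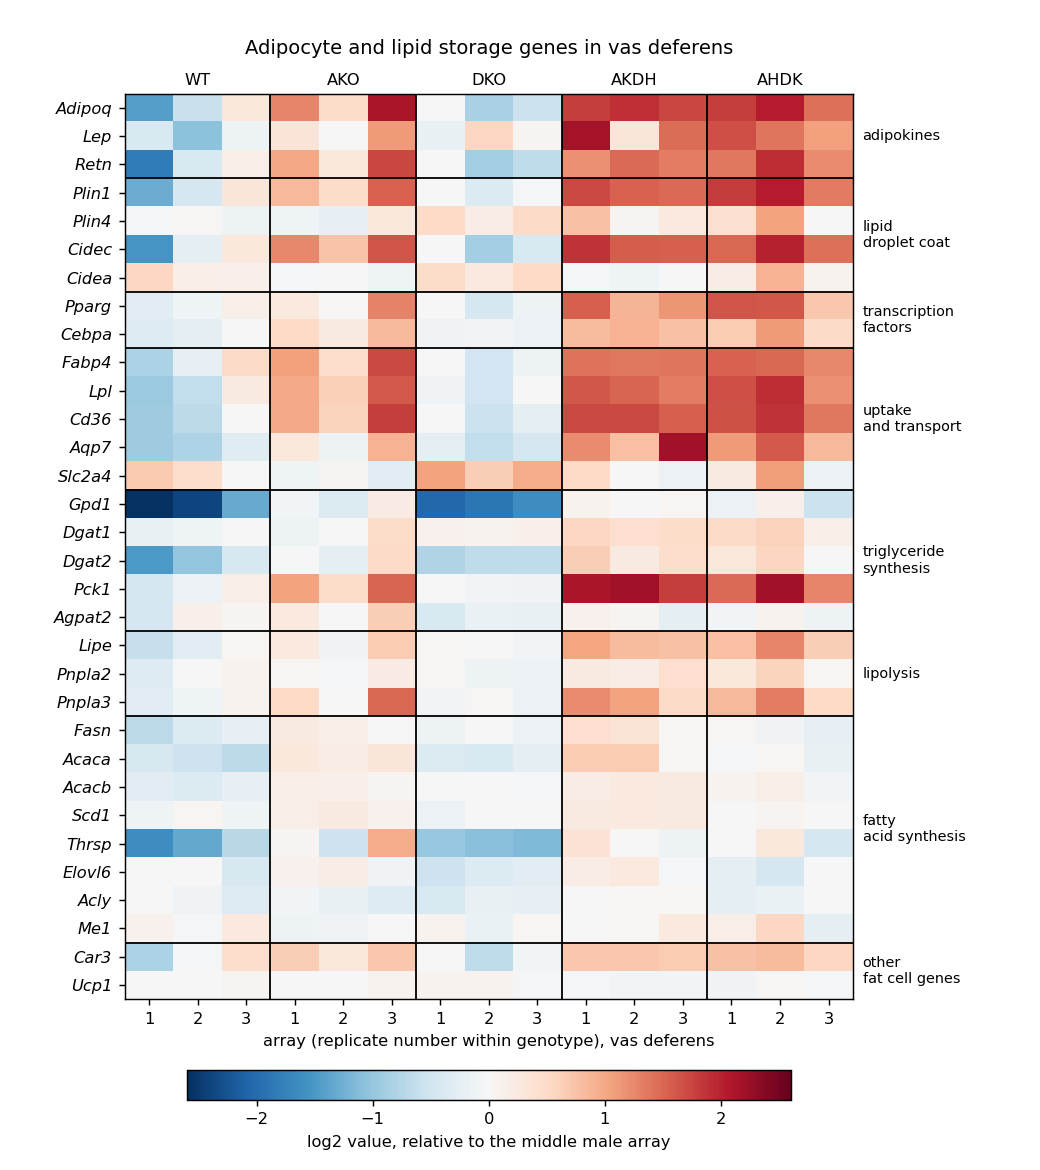
Log2 values of the 32 genes (rows, grouped by role) on the 15 vas deferens arrays (columns, 3 per genotype), relative to the middle male array; red is higher and blue lower. The rows of Adipoq, Plin1 and Cd36 are red on all AKDH and AHDK arrays and pale or blue on WT and DKO arrays. Slc2a4 is red on the DKO arrays (0.64 to 1.05), but it also reached 0.69 on WT replicate 1 and 1.08 on AHDK replicate 2.

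All 3 hormones of fat cells rose in AKDH and AHDK, and 2 of them in AKO. Adipoq encodes adiponectin, a hormone made almost only by fat cells. Adipoq stood at -1.44, -0.58 and 0.30 on WT arrays, at 1.27, 0.48 and 2.12 on AKO arrays, at 0, -0.85 and -0.56 on DKO arrays, at 1.79, 1.91 and 1.74 on AKDH arrays and at 1.80, 2.05 and 1.43 on AHDK arrays. All AKO, AKDH and AHDK arrays lay above all WT and DKO arrays, and the DKO arrays fell within the WT range. The changes against WT were 1.86 (SE 0.44, adjusted p = 0.0195) for AKO, 2.38 (SE 0.44, adjusted p = 0.0025) for AKDH and 2.33 (SE 0.44, adjusted p = 0.0136) for AHDK, or 3.63-fold, 5.22-fold and 5.03-fold. In DKO the change was 0.10 (SE 0.44, adjusted p = 0.949).

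Lep encodes leptin, which signals the size of the fat store to the brain. Lep stood at -0.39, -1.07 and -0.14 on WT arrays, at 0.34, 0 and 1.12 on AKO arrays, at -0.20, 0.53 and 0.073 on DKO arrays, at 2.15, 0.32 and 1.44 on AKDH arrays and at 1.67, 1.39 and 1.06 on AHDK arrays. The 3 mutant groups other than DKO lay above WT, but AKDH replicate 2 was far below its group and within the DKO range. The changes were 1.02 (SE 0.43, adjusted p = 0.176) for AKO, 1.84 (SE 0.43, adjusted p = 0.0096) for AKDH and 1.91 (SE 0.43, adjusted p = 0.0296) for AHDK. Retn, the hormone resistin, rose by 1.68 in AKO (adjusted p = 0.0423), 2.02 in AKDH and 2.19 in AHDK, from WT values of -1.81, -0.39 and 0.17. Its lowest WT array was replicate 1, as for Adipoq.

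Of the 4 droplet coat genes, 2 rose in each of AKO, AKDH and AHDK. Plin1 encodes perilipin 1, which coats the large droplet and guards it from lipases. Plin1 stood at -1.30, -0.44 and 0.32 on WT arrays, at 0.84, 0.48 and 1.54 on AKO arrays, at 0, -0.35 and -0.048 on DKO arrays, at 1.72, 1.52 and 1.47 on AKDH arrays and at 1.83, 2.04 and 1.34 on AHDK arrays. Every AKO, AKDH and AHDK array lay above every WT array, and the DKO arrays lay inside the WT range. The changes were 1.43 (SE 0.35, adjusted p = 0.0258) for AKO, 2.04 (SE 0.35, adjusted p = 0.00182) for AKDH and 2.21 (SE 0.35, adjusted p = 0.00677) for AHDK.

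Cidec encodes a protein that merges small droplets into large ones. Cidec stood at -1.53, -0.23 and 0.26 on WT arrays, at 1.25, 0.73 and 1.64 on AKO arrays, at 0, -0.88 and -0.41 on DKO arrays, at 1.88, 1.58 and 1.56 on AKDH arrays and at 1.49, 2.00 and 1.44 on AHDK arrays. The WT arrays spread widely, and the AKO, AKDH and AHDK arrays all lay above them. The changes were 1.71 (SE 0.39, adjusted p = 0.0178) for AKO, 2.17 (SE 0.39, adjusted p = 0.00232) for AKDH and 2.14 (SE 0.39, adjusted p = 0.0123) for AHDK. Plin4, another perilipin, changed by 0.022 to 0.53 over the 4 mutants and was called in none. Cidea, a relative of Cidec that marks brown and beige fat, changed by -0.33 in AKO and -0.34 in AKDH, with all arrays of both below WT and neither called (adjusted p = 0.299 and 0.181), and by 0.11 in AHDK.

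Both transcription factors of fat cell formation rose in AKDH and AHDK, and Cebpa alone in AKO. Pparg encodes PPARG, the receptor without which fat cells do not form. Pparg stood at -0.30, -0.11 and 0.15 on WT arrays, at 0.25, 0.040 and 1.29 on AKO arrays, at 0, -0.44 and -0.12 on DKO arrays, at 1.55, 0.89 and 1.14 on AKDH arrays and at 1.64, 1.61 and 0.71 on AHDK arrays. In AKO, replicate 3 was high and replicates 1 and 2 were close to WT, whereas all AKDH and AHDK arrays were above WT. The changes were 0.61 (SE 0.32, adjusted p = 0.292) for AKO, 1.28 (SE 0.32, adjusted p = 0.0147) for AKDH and 1.41 (SE 0.32, adjusted p = 0.0331) for AHDK. In DKO Pparg differed from WT by -0.10 (SE 0.32). Leaving out 1 array, the Pparg call held in 4 of 6 refits in AKDH and in 2 of 6 in AHDK.

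Cebpa encodes C/EBP alpha, which works with PPARG and keeps its gene on. Cebpa stood at -0.34, -0.25 and 0 on WT arrays, at 0.52, 0.23 and 0.84 on AKO arrays, at -0.093, -0.071 and -0.15 on DKO arrays, at 0.82, 0.90 and 0.76 on AKDH arrays and at 0.66, 1.11 and 0.50 on AHDK arrays. The 3 groups were above WT and DKO on every array. The changes were 0.73 (SE 0.16, adjusted p = 0.0156) for AKO, 1.03 (SE 0.16, adjusted p = 0.00108) for AKDH and 0.96 (SE 0.16, adjusted p = 0.00902) for AHDK, and 0.093 in DKO.

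**Figure D2:**
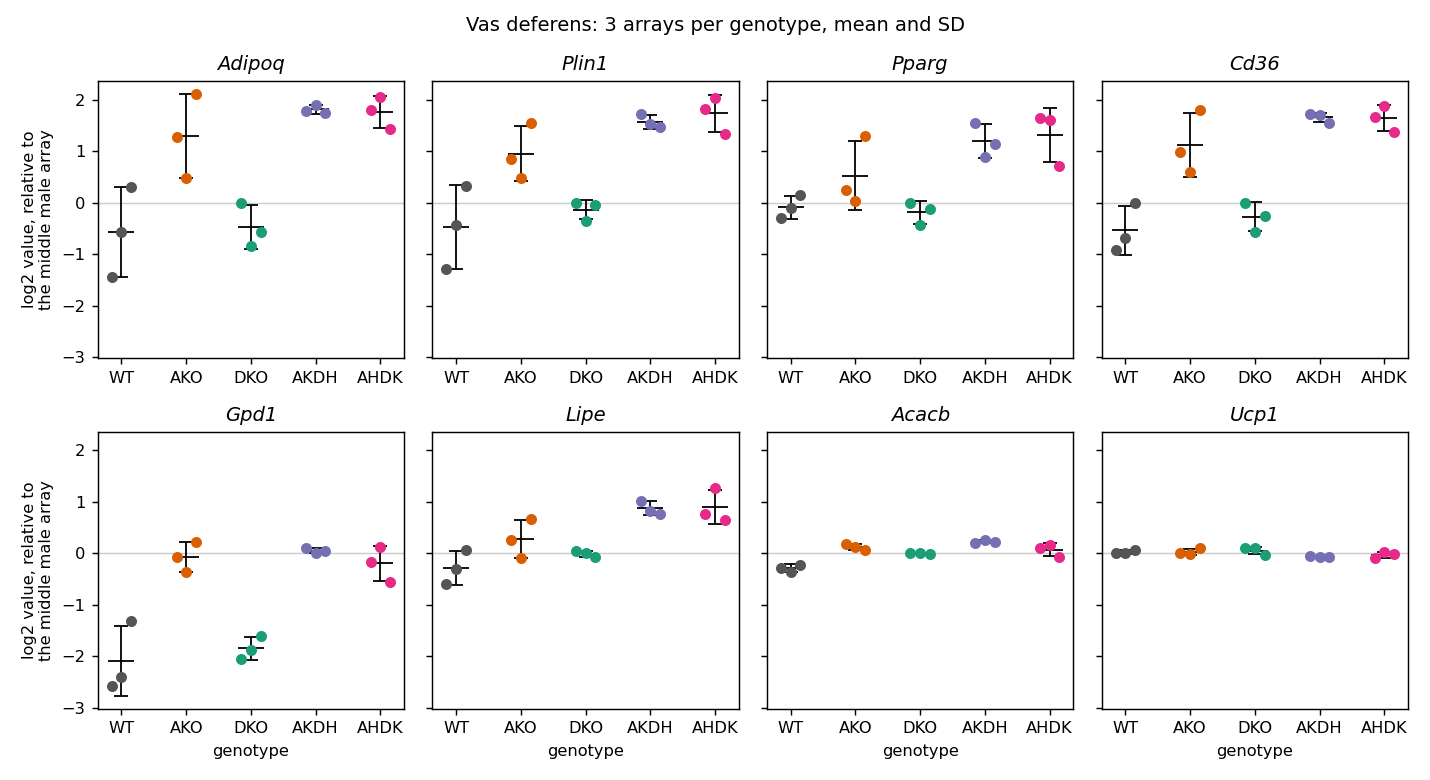
Log2 values of 8 genes in vas deferens (y axis, relative to the middle male array) by genotype (x axis); points are the 3 arrays, the long bar their mean and the whiskers 1 SD. For Adipoq, Plin1 and Cd36 the AKO, AKDH and AHDK points lie above the WT points and the DKO points do not, and Ucp1 points of all genotypes lie near 0.

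Of the 5 uptake and transport genes, 3 rose in AKO (Lpl, Cd36 and Fabp4), the same 3 and Aqp7 in AKDH and AHDK, and limma called 0 in DKO (0 also at an unadjusted p below 0.05). Lpl encodes lipoprotein lipase, which frees fatty acids from lipoproteins in the capillary. Lpl stood at -0.95, -0.65 and 0.23 on WT arrays, at 0.98, 0.63 and 1.59 on AKO arrays, at -0.090, -0.49 and 0 on DKO arrays, at 1.62, 1.51 and 1.33 on AKDH arrays and at 1.67, 1.92 and 1.19 on AHDK arrays. WT replicate 3 was the highest WT array and still below the lowest AKO array. The changes were 1.52 (SE 0.31, adjusted p = 0.009) for AKO, 1.95 (SE 0.31, adjusted p = 0.00103) for AKDH and 2.05 (SE 0.31, adjusted p = 0.00479) for AHDK.

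Cd36 encodes a fatty acid transporter of the cell surface. Cd36 stood at -0.93, -0.69 and 0.00010 on WT arrays, at 0.98, 0.59 and 1.80 on AKO arrays, at 0, -0.57 and -0.25 on DKO arrays, at 1.71, 1.71 and 1.56 on AKDH arrays and at 1.67, 1.87 and 1.38 on AHDK arrays. The AKDH arrays were the closest together, and the AKO arrays the furthest apart of the mutant groups. The changes were 1.66 (SE 0.29, adjusted p = 0.00442) for AKO, 2.20 (SE 0.29, adjusted p = 0.000377) for AKDH and 2.18 (SE 0.29, adjusted p = 0.00319) for AHDK, which were 3.16-fold, 4.59-fold and 4.52-fold.

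Aqp7 encodes the channel through which glycerol leaves fat cells. Aqp7 stood at -0.93, -0.80 and -0.32 on WT arrays, at 0.28, -0.14 and 0.89 on AKO arrays, at -0.24, -0.64 and -0.44 on DKO arrays, at 1.24, 0.79 and 2.17 on AKDH arrays and at 1.12, 1.59 and 0.85 on AHDK arrays. AKDH replicate 3 was the highest array, and AKO arrays lay above WT but spread over more than 1 log2 unit. The changes were 1.03 (SE 0.34, adjusted p = 0.0876) for AKO, 2.08 (SE 0.34, adjusted p = 0.00132) for AKDH and 1.87 (SE 0.34, adjusted p = 0.0123) for AHDK. Fabp4, a carrier of fatty acids inside fat cells, rose by 1.26 in AKO, 1.58 in AKDH and 1.61 in AHDK, and its AKO arrays (1.06, 0.46 and 1.72) overlapped with WT (-0.82, -0.22 and 0.50). Slc2a4, the insulin-sensitive glucose transporter of fat and muscle, changed by -0.49 in AKO and 0.50 in DKO, neither called (adjusted p = 0.345 and 0.356).

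Of the 5 triglyceride synthesis genes, 3 rose in AKO and in AHDK and 4 in AKDH, and limma called 0 in DKO (0 also at an unadjusted p below 0.05). Gpd1 makes the glycerol phosphate backbone of triglyceride. Gpd1 stood at -2.57, -2.39 and -1.31 on WT arrays, at -0.067, -0.36 and 0.22 on AKO arrays, at -2.04, -1.89 and -1.61 on DKO arrays, at 0.10, 0 and 0.043 on AKDH arrays and at -0.16, 0.13 and -0.56 on AHDK arrays. WT and DKO arrays were far below the other 3 groups, with no overlap. The changes were 2.02 (SE 0.28, adjusted p = 0.00125) for AKO, 2.14 (SE 0.28, adjusted p = 0.000369) for AKDH and 1.90 (SE 0.28, adjusted p = 0.00479) for AHDK, and 4.06-fold was the largest fold in AKO among the 32 genes. In DKO the change was 0.25 (SE 0.28).

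Pck1 encodes the enzyme that makes the same backbone from pyruvate-derived carbon in fat cells. Pck1 stood at -0.44, -0.15 and 0.17 on WT arrays, at 1.04, 0.49 and 1.51 on AKO arrays, at 0, -0.074 and -0.10 on DKO arrays, at 2.13, 2.18 and 1.79 on AKDH arrays and at 1.47, 2.18 and 1.28 on AHDK arrays. DKO arrays lay within the WT range, AKO arrays above it, and AKDH arrays above all AKO arrays. The changes were 1.15 (SE 0.27, adjusted p = 0.0178) for AKO, 2.17 (SE 0.27, adjusted p = 0.000217) for AKDH and 1.78 (SE 0.27, adjusted p = 0.00473) for AHDK.

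Dgat2 encodes one of the enzymes that add the last fatty acid. Dgat2 stood at -1.50, -1.02 and -0.41 on WT arrays, at 0.017, -0.23 and 0.49 on AKO arrays, at -0.77, -0.66 and -0.66 on DKO arrays, at 0.63, 0.24 and 0.45 on AKDH arrays and at 0.29, 0.56 and 0 on AHDK arrays. All AKO, AKDH and AHDK arrays were above WT, and WT replicate 3 was the nearest to them. The changes were 1.07 (SE 0.25, adjusted p = 0.019) for AKO, 1.42 (SE 0.25, adjusted p = 0.00199) for AKDH and 1.26 (SE 0.25, adjusted p = 0.0175) for AHDK. The enzyme of the same step, Dgat1, rose in AKDH only (0.59, adjusted p = 0.0105), with 0.52 in AHDK (adjusted p = 0.0611). Agpat2, an acyltransferase of an earlier step, changed by -0.18 to 0.37 and was not called.

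Among the lipolysis genes, Lipe rose in AKDH and AHDK. Lipe encodes hormone-sensitive lipase, which breaks down diglyceride. Lipe stood at -0.60, -0.30 and 0.059 on WT arrays, at 0.26, -0.083 and 0.66 on AKO arrays, at 0.044, 0 and -0.073 on DKO arrays, at 1.03, 0.83 and 0.77 on AKDH arrays and at 0.77, 1.27 and 0.64 on AHDK arrays. AKDH and AHDK arrays were above WT, and AKO replicate 2 lay inside the WT range. The changes were 0.56 (SE 0.21, adjusted p = 0.123) for AKO, 1.15 (SE 0.21, adjusted p = 0.00221) for AKDH and 1.17 (SE 0.21, adjusted p = 0.0105) for AHDK. Pnpla3, a relative of the main triglyceride lipase, rose in AKDH (1.02, adjusted p = 0.0382), a call that held in 1 of 6 refits without 1 array. Its change in AHDK was 1.00 (adjusted p = 0.117). Pnpla2, that main lipase, changed by 0.0017 to 0.39 and was not called in any mutant.

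Of the 8 fatty acid synthesis genes, 5 rose in AKO and the same number in AKDH (Fasn, Acaca, Acacb, Scd1 and Thrsp both times), and 1 in AHDK and DKO (Acacb). Acacb encodes the acetyl-CoA carboxylase at the mitochondrial surface. Acacb stood at -0.28, -0.36 and -0.22 on WT arrays, at 0.18, 0.13 and 0.073 on AKO arrays, at 0.00070, 0 and -0.023 on DKO arrays, at 0.19, 0.26 and 0.23 on AKDH arrays and at 0.10, 0.17 and -0.069 on AHDK arrays. All 4 mutants lay above WT on every array. The changes were 0.41 (SE 0.061, adjusted p = 0.0017) for AKO, 0.28 (SE 0.061, adjusted p = 0.0252) for DKO, 0.51 (SE 0.061, adjusted p = 0.000191) for AKDH and 0.35 (SE 0.061, adjusted p = 0.00952) for AHDK.

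Acaca encodes the carboxylase that commits carbon to new fatty acids. Acaca stood at -0.42, -0.54 and -0.68 on WT arrays, at 0.27, 0.18 and 0.31 on AKO arrays, at -0.35, -0.39 and -0.25 on DKO arrays, at 0.66, 0.66 and 0.022 on AKDH arrays and at -0.058, 0.043 and -0.19 on AHDK arrays. Every mutant array lay above all WT arrays, DKO narrowly, and AKDH replicate 3 was lower than the other 2 AKDH arrays. The changes were 0.80 (SE 0.14, adjusted p = 0.00473) for AKO, 1.00 (SE 0.14, adjusted p = 0.000588) for AKDH and 0.48 (SE 0.14, adjusted p = 0.0899) for AHDK. Fasn, fatty acid synthase, stood at -0.68, -0.36 and -0.21 on WT arrays, at 0.23, 0.16 and -0.0058 on AKO arrays, at -0.14, 0 and -0.15 on DKO arrays, at 0.43, 0.35 and 0.057 on AKDH arrays and at 0.053, -0.095 and -0.20 on AHDK arrays. Every mutant array lay above all WT arrays, and WT replicate 3 was the nearest to them. Its changes were 0.54 (SE 0.13, adjusted p = 0.0177) for AKO, 0.70 (SE 0.13, adjusted p = 0.00221) for AKDH and 0.34 (SE 0.13, adjusted p = 0.177) for AHDK.

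Thrsp, a fat cell protein that follows the rate of fat synthesis, rose by 1.39 in AKO (adjusted p = 0.0212) and 1.30 in AKDH, and its 1.16 in AHDK was not called (adjusted p = 0.0778). Scd1, which puts a double bond into fatty acids, rose by 0.22 in AKO and 0.29 in AKDH. Elovl6, Acly and Me1, which lengthen fatty acids and supply their carbon and reducing power, were called in no mutant, with changes from -0.26 (Elovl6 in DKO) to 0.27 (Elovl6 in AKDH).

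Of the remaining genes, Car3 and Ucp1, 1 was called. Car3, a carbonic anhydrase abundant in fat and muscle, rose in AKDH (0.81, adjusted p = 0.0421), a call that held in 1 of 6 refits without 1 array. Ucp1 encodes the heat-making uncoupling protein of brown fat. Ucp1 stood at 0, 0.010 and 0.074 on WT arrays, at 0.010, -0.013 and 0.10 on AKO arrays, at 0.10, 0.095 and -0.034 on DKO arrays, at -0.048, -0.062 and -0.072 on AKDH arrays and at -0.092, 0.027 and -0.023 on AHDK arrays. All genotypes lay close to 0, and the AKDH arrays were slightly below WT. The changes were 0.0036 (SE 0.051, adjusted p = 0.981) for AKO, 0.025 (SE 0.051, adjusted p = 0.869) for DKO, -0.089 (SE 0.051, adjusted p = 0.221) for AKDH and -0.058 (SE 0.051, adjusted p = 0.652) for AHDK.

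**Figure D3:**
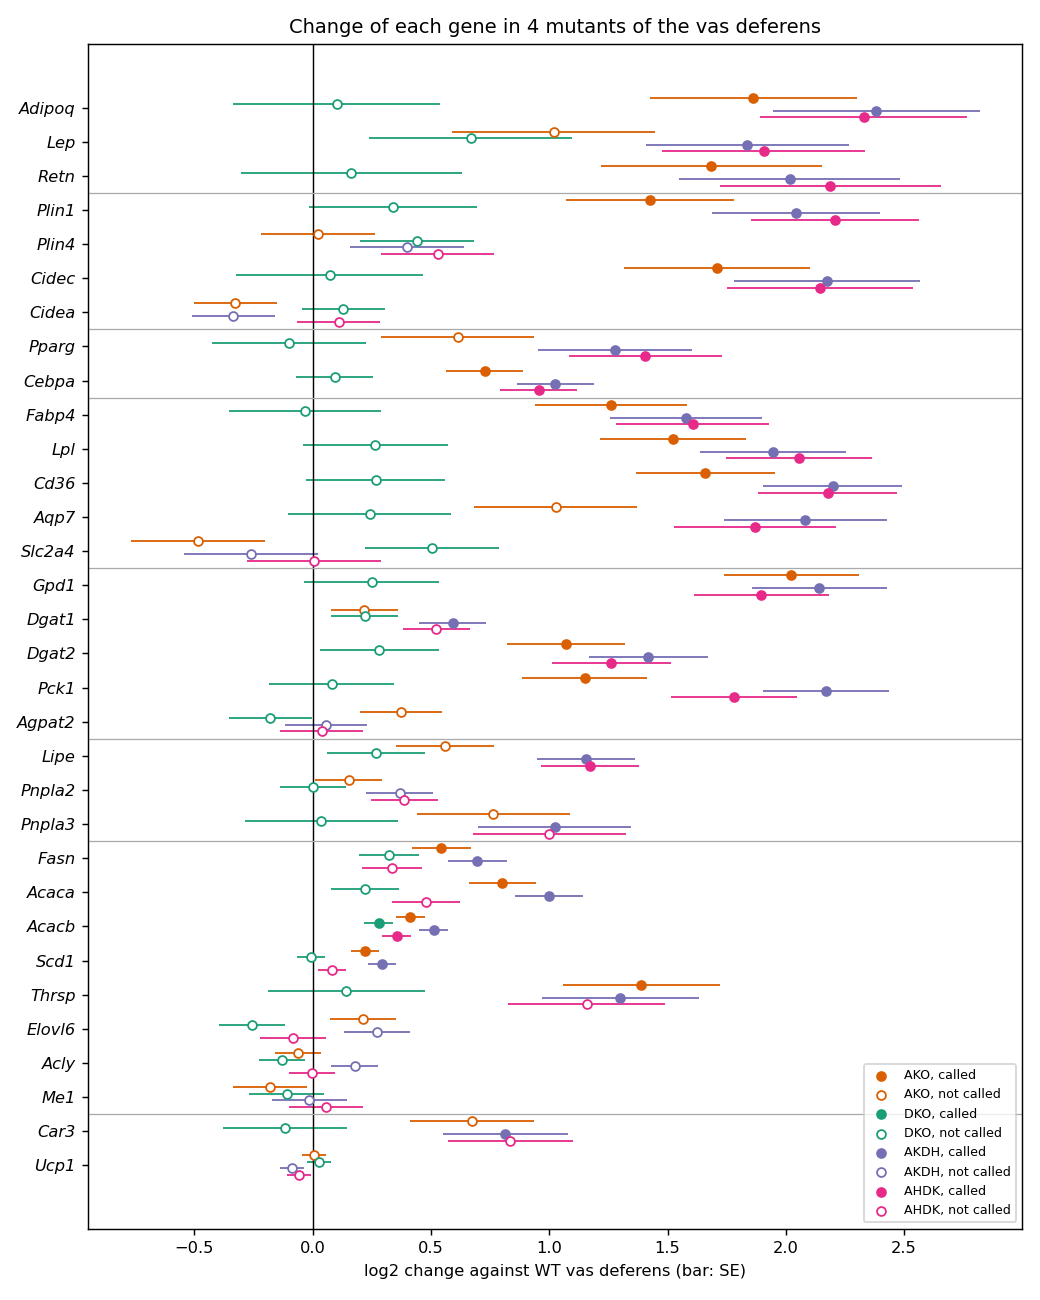
Log2 change of each gene (rows) in the 4 vas deferens mutants against WT (x axis); bars are 1 SE from the limma fit, filled points have an adjusted p below 0.05. The AKO, AKDH and AHDK points of most rows lie to the right of the DKO points, which lie between -0.26 and 0.67.

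In WT, AKO and AHDK most of the genes also moved together between arrays of 1 genotype. The mean over the 32 genes was -0.61, -0.36 and -0.053 on the 3 WT arrays and -0.13, -0.30 and -0.18 for DKO. It was 0.37, 0.12 and 0.74 for AKO, against 0.85, 0.67 and 0.67 for AKDH and 0.68, 0.94 and 0.43 for AHDK. WT replicate 1 had the lowest WT value for 22 genes and WT replicate 3 the highest for 24. WT replicate 3 was also the lowest for 7 genes, among them Slc2a4 and Acaca. AKO replicate 3 was the highest of its group for 25 genes and replicate 2 the lowest for 23. AHDK replicate 2 was the highest for 26 and replicate 3 the lowest for 29. The shares of all genes that were highest or lowest on these arrays are not given here. Over the 32 genes the median SD within a vas deferens genotype was 0.343, against 0.114 over all genes, and 18 of the 32 were above the 90th percentile of all genes.

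Markers of other tissues were measured on the same arrays. The mean of 16 skeletal muscle markers was 0.41, 0.37 and 1.47 on the WT arrays, from 0.93 to 1.73 for AKO, 0.040 to 0.11 for DKO, -0.59 to 2.25 for AKDH and -0.42 to 0.18 for AHDK, and limma called none of the 16 in any mutant against WT (at an unadjusted p below 0.05, 1 higher in AKO, and 1, 3 and 1 lower in DKO, AKDH and AHDK). WT replicate 3 and AKDH replicate 2 were the highest arrays of their groups. With this mean as a covariate the counts were 13 for AKO, 1 for DKO, 23 for AKDH and 14 for AHDK. The mean of 10 smooth muscle markers lay from 0.25 to 0.71 for WT, -0.34 to 0.089 for AKO, 0.53 to 0.77 for DKO, -0.41 to -0.051 for AKDH and -0.0048 to 0.76 for AHDK. Of those 10, 3 fell in AKO (Cnn1, Actg2 and Mylk), 8 in AKDH, and 0 in DKO and AHDK, where 0 also passed an unadjusted p below 0.05. At that p, 9 were lower in AKO and 10 in AKDH, and 8 and 10 lay below WT on every array. The proximal epididymis markers had means of -1.37 to -0.82 in WT, -0.11 to 0.25 in AKO, -0.35 to 0.071 in AKDH, -0.59 to 0.054 in AHDK and -1.31 to -0.77 in DKO, and of 11 such markers 3 rose in AKO (Spink8, Gpx5 and Rnase9), the same 3 and Adam7 in AKDH, 1 in AHDK (Rnase9) and 0 in DKO (0 also at an unadjusted p below 0.05). The sperm and testis germ cell mean was -0.055 to 0.53 on WT arrays, -0.88 to -0.56 for AKO, -0.59 to 0.73 for DKO, -1.27 to 1.13 for AKDH and -0.10 to 1.13 for AHDK. Of its 10 markers, 7 lay below and 1 above WT on every AKO array, and Prm1 and Prm2 fell in AKO and in AKDH. Of 13 endothelial markers, 1 rose in AKO, 1 rose and 1 fell in AKDH, and limma called 0 in DKO and AHDK. At an unadjusted p below 0.05, 1 was higher and 1 lower in DKO, and 1 higher and 2 lower in AHDK. Centring hides which markers are absent, and the part of smooth muscle, epididymis, sperm and endothelial RNA in the storage gene changes was not tested.

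The mutants were then compared with each other, without WT. DKO against AKO had 15 genes lower and 1 higher, Slc2a4, where 17.8% of all genes were called. In the same comparison 8 of 10 smooth muscle markers and 2 of 10 sperm and testis germ cell markers were higher in DKO. Lower were 3 of 16 skeletal muscle markers (Atp2a1, Myh4 and Myoz1), 3 of 10 macrophage markers (C1qb, C1qc and C1qa), 3 of 11 proximal epididymis markers (Rnase9, Gpx5 and Spink8) and 1 of 9 fibroblast and preadipocyte markers. Of 13 endothelial markers, 4 were higher and 1 lower. The part of these markers' cells in the storage gene differences was not tested. Gpd1 was -1.77 (SE 0.28, adjusted p = 0.00156) in DKO against AKO, Cd36 -1.39 (adjusted p = 0.00706) and Adipoq -1.76 (adjusted p = 0.0169). Slc2a4 was higher in DKO on every array, by 0.99 (adjusted p = 0.0319). Only Gpd1 and Cd36 were called in all 6 refits without 1 array, and the count fell to 4 without AKO replicate 3, 6 without AKO replicate 1, and 7, 6 and 8 without DKO replicates 1, 2 and 3.

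AHDK differs from DKO by the loss of 1 Hoxa copy on top of both Hoxd copies. AHDK against DKO had 4 of the 32 genes higher, 0 lower and 28 not called, against 0.366% of all genes called: Cd36 (1.91, SE 0.29, adjusted p = 0.0314), Lpl (1.79, adjusted p = 0.0395), Pck1 (1.70, adjusted p = 0.0316) and Gpd1 (1.65, adjusted p = 0.0395). Adipoq differed by 2.23, just outside the threshold (adjusted p = 0.053). The count was 2 without AHDK replicate 2 and 0 without any other array of either group. It was also 0 when only these 6 arrays were fitted, with a robust prior, or with the replicate number as a block, and 10 after quantile normalisation.

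Losing 1 Hoxd copy on top of both Hoxa copies made no called difference. AKDH against AKO had 0 of the 32 genes called by limma, against 1.29% of all genes, with 5 higher and 0 lower at an unadjusted p below 0.05 (14.2% of all genes). Whatever their p, 28 of the 32 were higher in AKDH and 4 lower. Their median change was 0.28, against -0.024 over all genes. Pck1 came nearest to a call, at 1.02 (SE 0.27, adjusted p = 0.0913). AKDH against AHDK had 0 called by limma, against 4.05% of all genes, with 5 higher and 1 lower at an unadjusted p below 0.05 (19.5% of all genes). There Adipoq differed by 0.053 (SE 0.44), Acaca by 0.52 (adjusted p = 0.0667) and Scd1 by 0.21 (adjusted p = 0.0673), with every AKDH array of Scd1 above AHDK. Without AKDH replicate 3, 1 gene was called in each of these comparisons, and in both it was Acaca.

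Further genes of fat cells came from a separate list of 52 measured genes. In vas deferens 21 of them rose and 3 fell in AKDH, where 24.3% of all genes were called. In AKO 12 rose and 3 fell, against 9.35% of all genes called. In AHDK 7 rose and 0 fell, against 4.15% called, with 22 higher and 3 lower at an unadjusted p below 0.05. In DKO 1 rose (Cav2, 0.51, adjusted p = 0.0286), against 5.87% called. Median changes of the 52 genes were 0.24, 0.17, 0.18 and 0.025 in the same order, smaller than those of the 32 genes. Mlxipl, which encodes the glucose-sensing factor ChREBP of fat synthesis, rose by 1.21 in AKO, 0.96 in AKDH and 0.56 in AHDK. Pcx, pyruvate carboxylase, rose by 1.00, 1.26 and 0.98 in the same order. Trarg1, a partner of the glucose transporter in fat cells, rose by 1.79 in AKDH and 1.42 in AHDK. WT means in vas deferens and epididymis were -1.01 and 0.32 for Mlxipl, -0.60 and -0.21 for Pcx, and -0.37 and -0.47 for Trarg1.

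The same 3 genes of that list fell in AKO and AKDH. Vldlr, the very low density lipoprotein receptor, fell by 1.45 in AKO (adjusted p = 8.52e-06) and 1.34 in AKDH, and its -0.29 in AHDK was not called. Mgll, the lipase of the last lipolysis step, fell by 0.68 and 0.77, and Adipor1, a receptor for adiponectin, by 0.23 and 0.40. Of 14 brown fat genes, which include Ucp1 and Cidea, Slc27a2 rose and Ppara fell in AKO (2.23 and -0.67). In AKDH Slc27a2 rose while Ppara and Cox7a1 fell (2.19, -0.96 and -1.09). Slc27a2 activates and carries fatty acids, Ppara is the receptor that drives their oxidation, and Cox7a1 is a mitochondrial subunit of muscle and brown fat. These genes also differed between WT tissues. WT means in vas deferens and epididymis were -1.68 and 0.26 for Slc27a2, 0.66 and -0.88 for Ppara, and 0.75 and -0.99 for Cox7a1. They were 1.11 and -0.017 for Vldlr, 0.67 and -0.41 for Mgll, and 0.24 and -0.19 for Adipor1.

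In caudal epididymis the AKO mutation changed none of the 32 genes past the threshold. Limma called 0 of them, against 0.782% of all genes, with 5 higher and 1 lower at an unadjusted p below 0.05 (16% of all genes). Agpat2 came nearest, with -1.09, -0.58 and -0.29 in WT and 0.29, 0.25 and 0.44 in AKO. All AKO arrays were above WT, and the change was 0.98 (SE 0.20, adjusted p = 0.099). Gpd1 read 0.13, 0.42 and 0.44 in WT and 0.66, 0.68 and 0.63 in AKO, a change of 0.33 (adjusted p = 0.189). Adipoq, at -2.65, -2.44 and -1.22 in WT and -2.16, -2.46 and -1.70 in AKO, overlapped and changed by -0.0041 (SE 0.40). Of the 10 sperm and testis germ cell markers, 4 fell in AKO epididymis.

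The AKO effect itself was compared between epididymis and vas deferens. It was lower in epididymis for 5 genes and higher for 0 (at an unadjusted p below 0.05, 15 and 2, and 20.2% of all genes), where 7.22% of all genes were called. Cd36 differed by -1.92 (SE 0.45, adjusted p = 0.016) and Gpd1 by -1.70 (SE 0.36, adjusted p = 0.00869). Lipe (-1.09), Acaca (-0.97) and Acacb (-0.46) were also called. Arrays of the same number in the 2 tissues deviated together, and with genotype and number as a block 8 genes were called: Me1 higher, and Cd36, Gpd1, Adipoq, Retn, Fabp4, Lpl and Pck1 lower in epididymis. In that blocked fit the adjusted p was 0.0281 for Cd36, 0.0379 for Gpd1, 0.0604 for Acaca, 0.0871 for Lipe and 0.165 for Acacb. Cd36 and Gpd1 were called in all 12 refits without 1 array. The other counts were 3 without epididymis AKO replicate 1, epididymis WT replicate 1 or vas WT replicate 1, 2 without vas AKO replicate 1, vas AKO replicate 3 or vas WT replicate 2, and 9 without vas WT replicate 3.

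**Figure D4:**
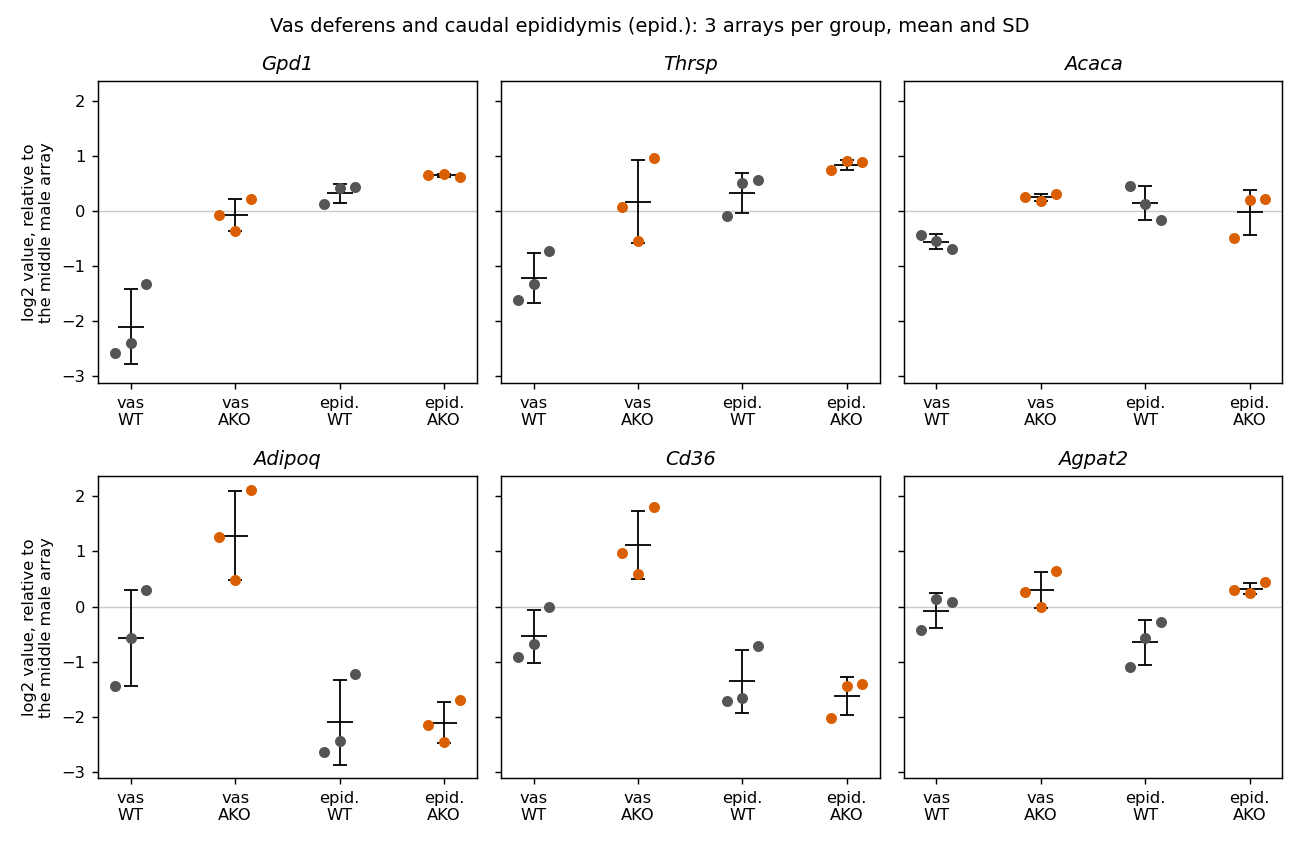
Log2 values of 6 genes (y axis, relative to the middle male array) in vas deferens and caudal epididymis of WT and AKO mice (x axis); points are the 3 arrays, the long bar their mean and the whiskers 1 SD. Gpd1 is low in WT vas deferens alone, and Adipoq and Cd36 are high in AKO vas deferens alone.

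In WT mice, epididymis and vas deferens differed in which storage genes were high. Against WT vas deferens, 6 genes were higher and 10 lower in WT epididymis, where 28.1% of all genes were called. Higher were Gpd1 (2.42, adjusted p = 2.51e-06) and Thrsp (1.55, adjusted p = 0.00108), then Dgat2, Acaca, Fasn and Acly at 0.80 to 0.32. Lower were Adipoq (-1.53, adjusted p = 0.0172), Retn, Fabp4, Car3, Cidec, Slc2a4, Plin4, Lpl, Agpat2 and Dgat1. With the arrays blocked by number the split was 5 higher and 13 lower. Quantile normalisation of the arrays gave 6 higher and 4 lower. Without vas WT replicate 3 it was 5 higher and 3 lower, without epididymis WT replicate 1 it was 3 of each, without epididymis WT replicate 2 it was 4 higher and 6 lower, and without vas WT replicate 2 it was 3 higher and 7 lower.

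In uterus, hormone and other fat cell genes ranged widely between arrays of 1 genotype. Adipoq stood at 1.83, -0.37 and -0.52 on WT arrays, at 1.22, -0.16 and 3.05 on AKO arrays, at 0, -0.34 and 1.75 on DKO arrays, at 2.25, -0.51 and -0.53 on AKDH arrays and at -0.22, -0.47 and -0.46 on AHDK arrays. WT replicate 1, AKO replicates 1 and 3, DKO replicate 3 and AKDH replicate 1 were high, and the other arrays lay between -0.53 and 0. Car3 had the same high arrays, at 2.37 in WT and 2.54 in AKDH against group lows of -2.64 and -2.91. The mean over the 32 genes was 0.40, -0.22 and -0.29 on the WT arrays and 0.56, -0.23 and -0.21 on the AKDH arrays. The skeletal muscle mean stayed between -0.15 and 0.24 on all 15 uterus arrays. The mesothelial mean did not follow Adipoq in every genotype. It was -0.18 on WT replicate 1 against -1.60 and -1.24 on the other WT arrays, but -0.25 on AKO replicate 3, the lowest of its group. On AKDH replicates 1 and 3, which differed in Adipoq, it was 0.39 and 0.41.

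Limma called 1 of the 32 genes in uterus, in AHDK, where 3.53% of all genes were called. Pparg read -0.11, -0.34 and -0.59 in WT and 0.22, 0.33 and 0.40 in AHDK, with no overlap, and rose by 0.67 (SE 0.16, adjusted p = 0.0433). That call was lost without any 1 of the 3 AHDK arrays and without WT replicate 2 or 3, and after quantile normalisation. In the same comparison all 10 macrophage markers were higher on every AHDK array than on every WT array, and 5 of them rose (Adgre1, Fcgr1, C1qb, Csf1r and Cd68). The macrophage mean was -0.26 to 0.046 in WT and 0.48 to 1.01 in AHDK. Of 10 epithelial markers 7 lay above WT on every AHDK array, and limma called 0 (5 higher at an unadjusted p below 0.05). The part of these cells in the Pparg value was not tested. Limma called 0 in AKO (0.0903% of all genes), DKO (0.973%) and AKDH (6.58%), with 3 higher and 0 lower, 1 higher and 0 lower, and 1 higher and 3 lower at an unadjusted p below 0.05. That p was reached by 9.35% of all genes in AKO, 15.3% of all genes in DKO and 22.7% of all genes in AKDH. The smallest p in AKO were those of Lpl (0.90, adjusted p = 0.196) and Scd1 (0.60, adjusted p = 0.316). In DKO they were Elovl6 (0.65, adjusted p = 0.163) and Acacb (-0.39), and in AKDH Cebpa (-0.47, adjusted p = 0.0777) and Me1 (-0.71). Leaving out 1 array gave 1 call in DKO (Elovl6, without DKO replicate 1), 2 in AKDH without AKDH replicate 1 (Slc2a4 higher, Fasn lower) and 1 without WT replicate 3 (Me1 lower).

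In oviduct, AKO against WT had 0 of the 32 genes and 0% of all genes called by limma, with 0 higher and 1 lower at an unadjusted p below 0.05 (3.05% of all genes). Adipoq read 3.96, 0.14 and 0.17 in WT and 1.23, 0.54 and -0.27 in AKO. Arrays of the same number in these WT and AKO groups deviated together (correlations 0.222 to 0.48), though the sample titles name no pairing. The fibroblast and preadipocyte marker mean was low on replicate 3 of both groups (-1.41 in WT and -1.24 in AKO), and its part in that match was not tested. Adding the number as a block changed no call. The mean over the 32 genes was 1.19, 0.26 and 0.12 in WT and 0.33, 0.15 and -0.14 in AKO, lower in AKO for each of the 3 numbers. WT replicate 1 was far above every other oviduct array, and 14 of the 32 genes stood at 1 or more on it, against 2 to 5 on the other arrays. The smallest p were those of Cebpa (-0.41, adjusted p = 0.993) and Elovl6 (-0.27, adjusted p = 0.993). The AKO effect did not differ past the threshold between oviduct and uterus for any of the 32 genes (0% of all genes called by limma, and 0 higher and 5 lower of the 32 at an unadjusted p below 0.05, as were 4.25% of all genes).

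WT oviduct and WT uterus differed in 5 storage genes, where 23.9% of all genes were called. Cidea read 2.74, 2.58 and 3.15 in oviduct and 0, -0.0098 and -0.057 in uterus. All oviduct arrays, WT and AKO, lay between 2.58 and 3.15, far above all uterus arrays, and the WT difference was 2.85 (SE 0.11, adjusted p = 5.67e-12). Also higher in oviduct were Gpd1 (2.14), Pparg (0.98) and Scd1 (0.96), and Dgat2 was lower (-0.85, adjusted p = 0.0103). All 5 were called in each of the 6 refits without 1 array, and without oviduct WT replicate 3 the count rose to 8. Me1 read 0.13, 3.25 and 0.082 in WT oviduct, so 1 array, replicate 2, set its mean. Both Me1 probe sets were high on that array, at 3.34 and 3.16, and its ovary marker mean of 2.33 stood apart as well, whose part in the Me1 value was not tested.

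**Figure D5:**
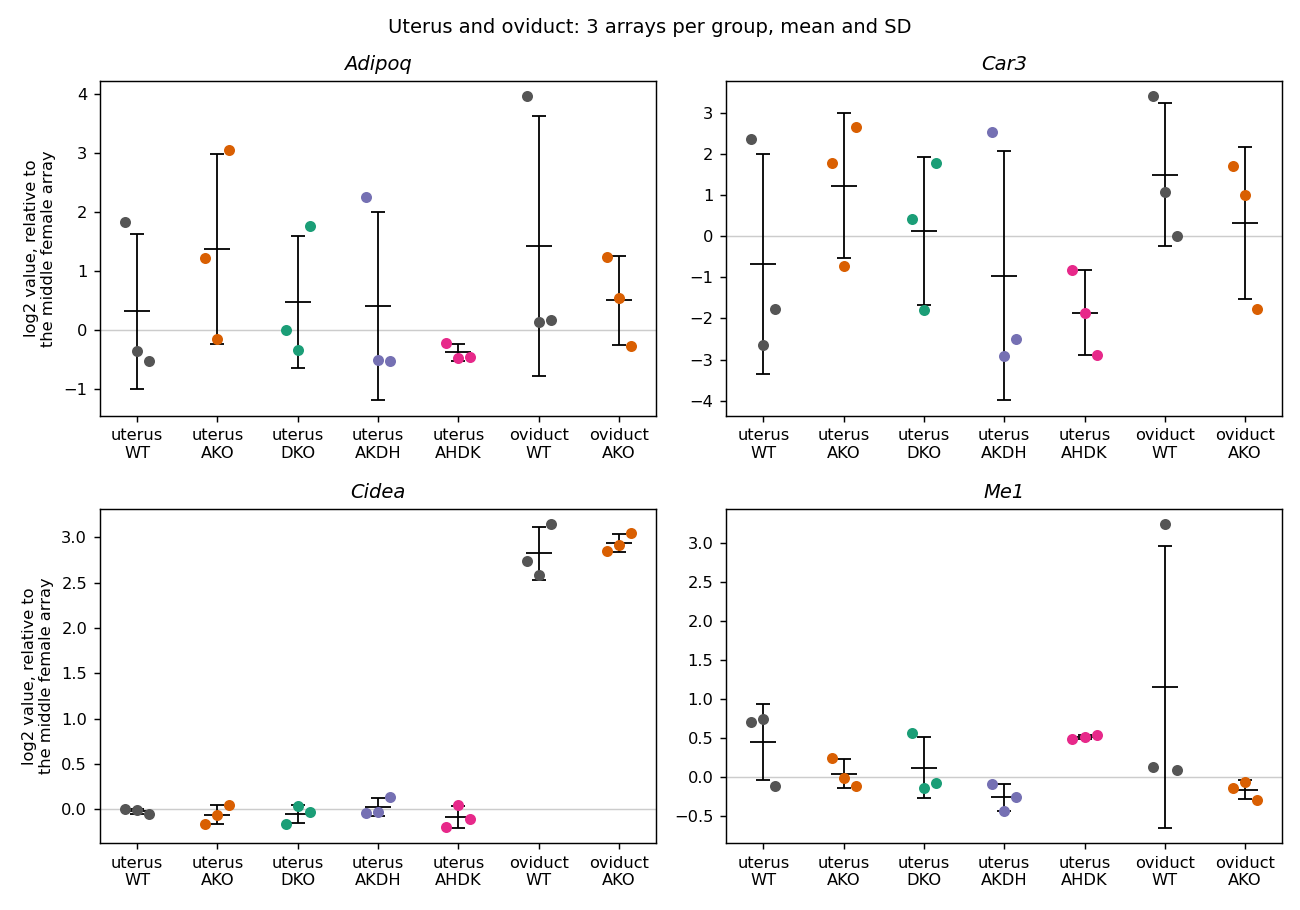
Log2 values of 4 genes (y axis, relative to the middle female array) in uterus and oviduct by genotype (x axis); points are the 3 arrays, the long bar their mean and the whiskers 1 SD. Adipoq and Car3 spread widely within genotypes, Cidea separates oviduct from uterus, and Me1 is high on 1 WT oviduct array.

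The spread within genotypes was wider for the 32 genes than for genes in general in every tissue. The median SD was 0.242 in epididymis against 0.119 over all genes, 0.289 against 0.144 in uterus, and 0.418 against 0.116 in oviduct. Above the 90th percentile of all genes were 14 of the 32 in epididymis, 13 in uterus and 20 in oviduct. The SE of the AKO change was larger in the female tissues for Adipoq, at 0.95 in uterus and 1.10 in oviduct against 0.44 in vas deferens.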

How the data were processed

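RNA of 42 whole-tissue samples was measured on Affymetrix whole-transcript arrays. Per the labels' protocols, cDNA made from 300 ng of column-purified total RNA was cut chemically and tagged with biotin. The authors deposited log values, taken here as log2; the base, summarisation, normalisation and genome build were not given in the sources used here, and the centring per sex was read from the values. No signal over background remains, and array number limits the precision. Probe sets of a gene were averaged. Changes came from lmFit and eBayes of limma 3.58.1 (R 4.3.3), first tested on simulated data; a fit took in every array of the tissue, or every array of that sex for comparisons between tissues. Of the probe sets, 21789 had 1 symbol, 1621 several and 5446 none. The labels call arrays biological replicates. Values are printed in full for Adipoq, Lep, Plin1, Cidec, Pparg and Ucp1 and for the 12 genes with the smallest adjusted p among those called in at least 2 vas deferens mutants. Sample titles name no pairing, so deviations of arrays of the same number were compared. Vas deferens and epididymis arrays of the same number deviated together: within WT and within AKO, deviations from the group mean correlated at 0.141 to 0.287. The same held for oviduct WT with oviduct AKO arrays (0.222 to 0.48) and uterus AKO with oviduct AKO arrays (0.161 to 0.461). WT and AKO arrays come from different mice, so such a match cannot show which arrays share an animal. It did not hold for uterus WT with oviduct WT arrays (-0.068 to 0.216). The genes, lists and tests were chosen with earlier results of these data known.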

Additional observations from a re-analysis of the deposited data

Results flagged for a closer look

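The AKO effect differed between caudal epididymis and vas deferens, by limma's test of the difference, for 5 genes. Cd36 differed by -1.92: its AKO change was -0.26 in epididymis and 1.66 in vas deferens. Gpd1 differed by -1.70, with 0.33 in epididymis and 2.02 in vas deferens. Lipe differed by -1.09, from -0.53 in epididymis and 0.56 in vas deferens, neither of which was called by itself. Acaca differed by -0.97 and Acacb by -0.46. Only Cd36 and Gpd1 of the 5 also passed with genotype and number as a block.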

How the results depend on the processing

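Over 103 called changes of single genes and 1447 refits, 0 turned direction, 332 lost the call and 1115 kept it. Numbers of the 32 genes called moved as follows. Fitting only the groups compared gave 3 in vas AKO, 0 in vas AHDK, 0 for AHDK against DKO, 1 for the tissue difference of the AKO effect in males and 6 for WT epididymis against WT vas deferens, and in uterus AHDK it turned the 1 call from Pparg higher to 1 lower (Fasn). Quantile normalisation gave 0 in vas DKO, 0 in uterus AHDK, 10 for AHDK against DKO, 1 for AKDH against AHDK (Acaca), and 10, with most now higher, for WT epididymis against WT vas deferens. Keeping the more variable genes gave 0 in vas DKO, 1 in epididymis AKO (Agpat2) and 9 for the tissue difference. Testing single probe sets gave 9 for AHDK against DKO and 1 for AKDH against AHDK. Without the 3 arrays left out as standing apart, AHDK against DKO had 10, AKDH against AHDK 1 and AKDH against AKO 1. The robust prior gave 0 for AHDK against DKO. The replicate number as a block gave 0 for AHDK against DKO and 15 in vas AKO; in vas deferens and uterus the numbers are shared by name only. The block of genotype and number, added after seeing the data, gave 8 for the tissue difference and changed no other count by over 1.5 times.

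Leaving out 1 array gave 5 to 16 in vas AKO, 0 to 1 in DKO, 19 to 22 in AKDH and 8 to 18 in AHDK. It gave 0 to 1 in uterus DKO, 0 to 2 in AKDH and 0 to 1 in AHDK. DKO against AKO ranged from 4 to 15, AKDH against AKO from 0 to 1, AHDK against DKO from 0 to 2, and AKDH against AHDK from 0 to 1. The male tissue difference ranged from 2 to 9, WT epididymis against WT vas deferens from 6 to 16 (8, with most now higher, without vas WT replicate 3), and WT oviduct against WT uterus from 5 to 8. The cause of these shifts was not tested. With 3 arrays a group and no signal over background, whether a gene was above background could not be judged.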
